A study of Homo sapiens with 12 samples.

Results

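The unselected Detroit line was compared here with the unselected Fadu line, as 2 Detroit parent arrays against 2 Fadu parent arrays out of the 12 arrays of the study. The arrays were chosen by their sample labels, and the comparison covered 8992 genes tested of 11963 genes on the array with a probe set of 1 symbol. All groups came from head and neck cancer lines, and the study held parent cells and an invasion subline of the Detroit, Fadu and OECM1 lines with 2 arrays per group. The groups used were the Detroit parent, the Fadu parent and, for levels and for the spread, the OECM1 parent and the 3 invasion sublines. Fadu was derived from a hypopharyngeal squamous cell carcinoma and OECM1 from an oral one. The labels write only Detroit and do not say which of the Detroit lines was used. The labels give the same treatment text for parents and sublines, which speaks of invasion through Matrigel, a basement membrane extract. They do not say whether duplicates were separate cultures, so the p-values cover no more than the variation among these arrays, possibly technical.

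Squamous cancers keep parts of the programme of stratified epithelium. Basal keratinocytes make KRT14 with its partner KRT5 and hold together through desmosomes, while inflamed or activated squamous epithelium makes S100A8 and S100A9, the subunits of calprotectin. Metalloproteinases and plasminogen activators cut the matrix around such cells. Interferon stimulated genes are switched on together when interferon signals through STAT factors that bind a response element in their promoters.

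The values were log2 RMA values, and array medians lay between 4.92 and 5.065. A value below 4.52, the 40th percentile of all values, is called dim here. Differences are Detroit parent minus Fadu parent on the log2 scale, n = 2 arrays each, and adjusted p-values are from limma with the spread pooled over the 6 groups and the Benjamini-Hochberg method over all 8992 genes. A gene was called at an adjusted p under 0.05. The root mean square difference between duplicates was 0.581 for the Detroit parent and 0.485 for the Fadu parent, within a range of 0.424 to 0.891 over the 6 groups. The log2 ratio of 3 prime to 5 prime ACTB controls, a measure of RNA quality, was -0.03 and -0.10 in the Detroit parent arrays and 0.55 and -0.23 in the Fadu parent arrays. The 2 arrays labelled Detroit invasion subline went against their label. Over all tested genes, which are not independent replicates, r was 0.961 between their mean and that of the Fadu parent, but 0.881 between their mean and that of the Detroit parent. These 2 arrays entered no mean that the comparison of the parents sets side by side, but they entered the pooled spread, the choice of a gene's probe set and the filter on dim genes.

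Both lines carried epithelial markers at high levels. EPCAM, a surface protein of simple and cancer epithelium, was at 10.49 and 10.17 in the Detroit parent arrays and at 9.38 and 8.85 in the Fadu parent arrays (difference 1.22, adjusted p = 0.268). KRT18 was at 11.43 and 12.04 in the Detroit parent and at 11.83 and 11.56 in the Fadu parent, and KRT8, CDH1, KRT5 and KRT19 lay at 8.59 or higher in all 4 arrays. The leukocyte marker PTPRC, the endothelial markers PECAM1 and CDH5 and the fibroblast marker LUM were dim in all 4 arrays. Other such markers were not. CD3D of T cells was at 5.74 and 5.81 in the Detroit parent and at 5.62 and 5.66 in the Fadu parent, COL1A1 of fibroblasts at 6.29 and 6.26 in the Detroit parent and at 5.87 and 6.11 in the Fadu parent. COL1A2 also lay above the dim limit in all 4 arrays, and CD14, DCN, THY1 and PDGFRB in some of them.

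Of the 8992 genes tested, 232 were called (2.58%), 116 higher in the Detroit parent (1.29%) and 116 lower (1.29%), and 1318 had an unadjusted p under 0.05. The median difference over all tested genes was 0.02. The share of 2.58% is the one to set beside the share called in each gene list below. The 44 lists were chosen with earlier results of these data known, and 61 of their 760 tested genes were called. List counts are therefore descriptions and no separate support for a programme. The fold of called genes had a median of 4.24, a smallest value of 1.97 and largest values of 88.6 among the higher and 29.5 among the lower genes. The arrays of the parents did not overlap in all 232 called genes, against 4617 of all tested genes (51.3%). Of the higher genes, 30 had both Fadu parent arrays dim, and of the lower genes, 25 had both Detroit parent arrays dim. RMA compresses low values, so a fold against a dim group is understated. Without the arrays labelled Detroit invasion subline, 366 genes were called. List calls then numbered 4 for mesenchymal genes, 5 for NRF2 targets and 3 each for the IGF axis, TGF-beta and metallothionein genes. They numbered 4 each for prostaglandin and for cholesterol and fatty acid genes, 2 for hypoxia genes and 1 for housekeeping genes. A fit without a parent array leaves 1 array in that group, so the SE is larger and fewer genes can pass. Leaving out a parent array gave 92 calls for Detroit parent replicate 1, 160 for Detroit parent replicate 2, 58 for Fadu parent replicate 1 and 92 for Fadu parent replicate 2.

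**Figure D1:**
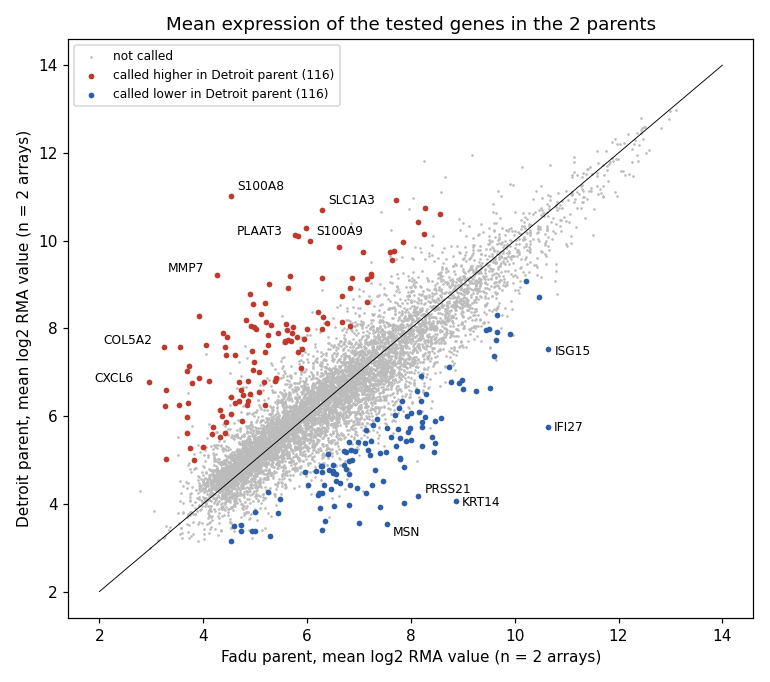
Mean log2 RMA value of each tested gene in the Fadu parent (x axis) and the Detroit parent (y axis), n = 2 arrays each, with the line of equal values. The 116 genes called higher in the Detroit parent lie above the line and the 116 called lower lie below it, with S100A8 farthest above and IFI27 and KRT14 farthest below.

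S100A8 had the largest difference of all called genes. It was at 10.62 and 11.40 in the Detroit parent arrays and at 4.37 and 4.71 in the Fadu parent arrays, a difference of 6.47 (SE 0.31, adjusted p = 3.34e-06), or 88.6-fold. Both Detroit parent arrays were thus bright and both Fadu parent arrays near the dim limit. S100A9, its partner in calprotectin, was at 9.86 and 10.13 in the Detroit parent and at 5.90 and 6.21 in the Fadu parent (difference 3.94, SE 0.25, adjusted p = 2.75e-05). S100A7, psoriasin, an antimicrobial protein of inflamed skin, was at 6.34 and 6.85 in the Detroit parent and at 3.13 and 3.43 in the Fadu parent (difference 3.32, adjusted p = 0.000101). In all 3 genes the gap between the lines was several times the gap between duplicates. Of 13 S100 genes tested, these 3 rose (23.1%), 0 fell and 10 did not pass, with a list median of 0.80. The calls of all 3 held whichever of the 12 arrays was left out. In the OECM1 parent, S100A8, S100A9 and S100A7 averaged 3.44 ± 0.0443, 4.76 ± 0.166 and 3.30 ± 0.057 (SD, n = 2), so the Detroit parent alone of the 3 parents had high levels of them. A second, mostly dim probe set of S100A8 gave a difference of only 0.81.

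Among chemokine genes, 2 that draw neutrophils were higher in the Detroit parent. CXCL6 was at 7.05 and 6.52 in the Detroit parent and at 2.98 and 2.93 in the Fadu parent (difference 3.83, adjusted p = 2.59e-05). CXCL3 was at 8.35 and 6.82 in the Detroit parent and at 4.33 and 4.49 in the Fadu parent (difference 3.17, adjusted p = 0.00563). For both genes the Fadu parent arrays were dim, and the groups lay apart, as they did in every called gene. Of 26 chemokine and interleukin genes tested, these 2 rose, 0 fell and 24 did not pass, and the list median was -0.08. That was 7.69% called, against 2.58% of all tested genes, and 13 had a difference above 0 and 13 below. Among those not called, CXCL1 had a difference of 2.63, CXCL2 of 0.99 and CXCL8 of 0.45, while IL1A had -1.16 and IL1B -1.52. The CXCL3 call ended without Fadu parent replicate 1 (adjusted p = 0.0564). Of 14 complement genes, 0 were called, and C3 was at 10.49 and 9.71 in the Detroit parent against 9.85 and 7.02 in the Fadu parent (difference 1.66, adjusted p = 0.438), so its arrays overlapped.

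**Figure D2:**
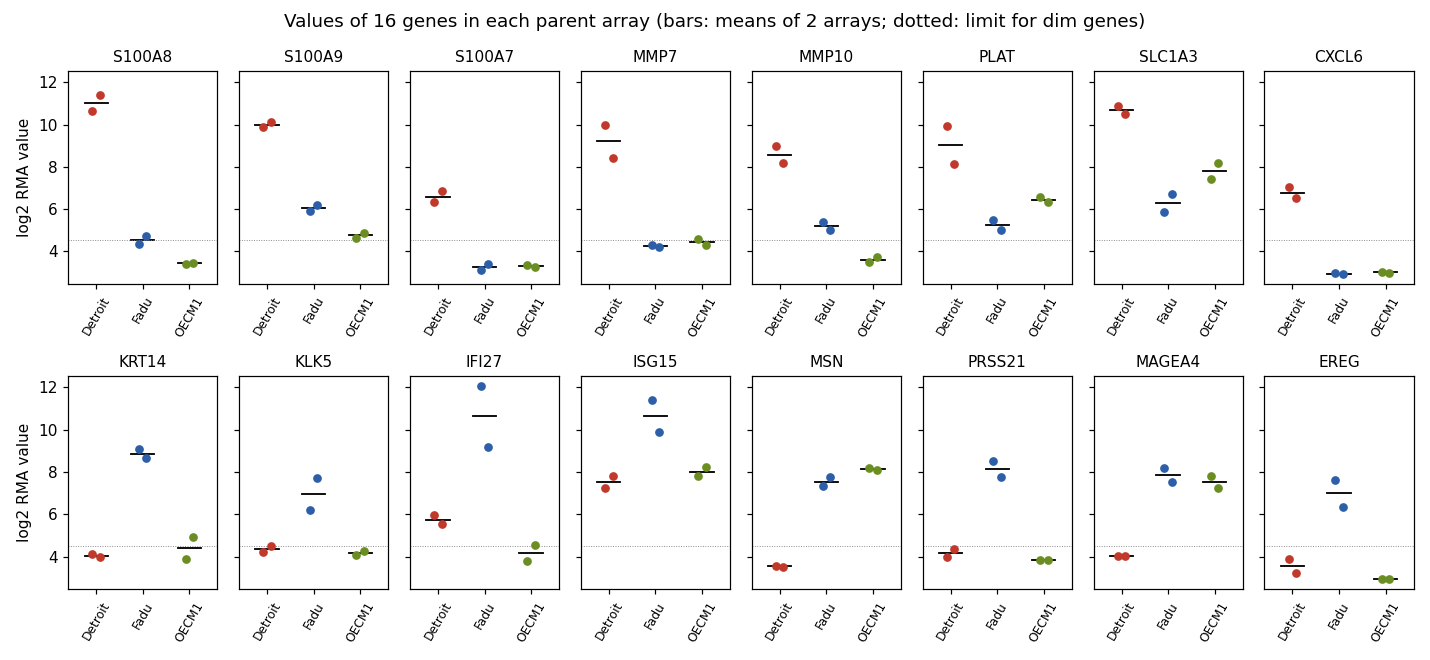
Log2 RMA values of 16 genes in each parent array, with Detroit, Fadu and OECM1 from left to right in each panel, the bar at the mean of 2 arrays and the dotted line at the dim limit of 4.52. S100A8, S100A9, S100A7, MMP7, MMP10, PLAT, SLC1A3 and CXCL6 are higher in both Detroit arrays than in both Fadu arrays, and KRT14, KLK5, IFI27, ISG15, MSN, PRSS21, MAGEA4 and EREG are lower.

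Among genes that cut matrix or inhibit its cutting, 5 were higher in the Detroit parent. MMP7, matrilysin, a small metalloproteinase of glandular and tumour epithelium, was at 10 and 8.43 in the Detroit parent arrays and at 4.32 and 4.20 in the Fadu parent arrays, which were dim. Its difference of 4.96 (SE 0.42, adjusted p = 0.000145) was 31.0-fold. MMP10, the stromelysin of wound-edge keratinocytes, was at 8.98 and 8.19 in the Detroit parent and at 5.39 and 5.0 in the Fadu parent (difference 3.39, adjusted p = 0.000941). As in every called gene, the lines did not overlap in either. The OECM1 parent averaged 4.44 ± 0.214 for MMP7 and 3.62 ± 0.169 for MMP10 (SD, n = 2), below the Detroit parent too. Of 24 metalloproteinases and inhibitors tested, 5 rose (20.8%), 0 fell and 19 did not pass, with a list median of 0.33. The other called members were the inhibitors TIMP2 (difference 2.36) and TIMP3 (1.47) and the sheddase ADAM9 (2.28). Other probe sets of TIMP3 gave 3.23, 3.10 and 1.32. The calls of MMP7 and MMP10 held whichever array was left out. Those of TIMP2 and ADAM9 ended without Detroit parent replicate 1 or either Fadu parent array (adjusted p = 0.0998 to 0.206), and that of TIMP3 in 8 of 12 such fits, each parent array among them (adjusted p = 0.0645 to 0.319). The list count was 2 without Detroit parent replicate 1, Fadu parent replicate 1 or Fadu parent replicate 2.

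MMP7 and MMP10 lie in the same cluster on chromosome 11, and their RefSeq promoters (GRCh38.p14, 300 bases around the start) are shown because both hold the letters of an AP-1 element and of a TATA box. AP-1 is the factor through which phorbol ester and growth factors raise many metalloproteinase genes. Capitals mark TGANTCA and TATAAA, searched on both strands. MMP7 is at chr11:102530698-102530997 and MMP10 at chr11:102780579-102780878, both on the minus strand.
MMP7: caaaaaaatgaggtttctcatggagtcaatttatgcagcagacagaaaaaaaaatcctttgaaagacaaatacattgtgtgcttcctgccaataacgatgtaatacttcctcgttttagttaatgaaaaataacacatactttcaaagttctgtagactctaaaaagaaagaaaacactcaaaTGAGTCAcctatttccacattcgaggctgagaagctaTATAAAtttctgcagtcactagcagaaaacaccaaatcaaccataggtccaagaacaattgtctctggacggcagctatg
MMP10: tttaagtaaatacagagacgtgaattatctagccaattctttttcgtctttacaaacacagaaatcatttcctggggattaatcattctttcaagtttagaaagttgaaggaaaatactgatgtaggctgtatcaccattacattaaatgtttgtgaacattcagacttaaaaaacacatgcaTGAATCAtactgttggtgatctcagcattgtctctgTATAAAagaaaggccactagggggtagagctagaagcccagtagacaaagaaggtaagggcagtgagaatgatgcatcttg
The AP-1 letters were in 2120 of 27305 promoters (7.76%), in 357 of 7308 promoters of tested genes (4.89%), in 7 of 91 of genes called higher (7.69%) and in 0 of 98 of genes called lower. The TATAAA letters were in 3264 of all promoters. These matches describe the sequences and show no binding.

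Members of the plasminogen system were called in both directions. PLAT, tissue plasminogen activator, was at 9.92 and 8.11 in the Detroit parent and at 5.50 and 5.03 in the Fadu parent (difference 3.75, SE 0.50, adjusted p = 0.00326). SERPINA1, alpha-1-antitrypsin, which inhibits serine proteases, was at 4.83 and 4.55 in the Detroit parent and at 7.05 and 6.08 in the Fadu parent (difference -1.88, adjusted p = 0.0211). As in every called gene, the groups did not overlap in either. The other 11 of 13 plasminogen activators and serpins did not pass (list median 0.33). PLGRKT, a membrane receptor for plasminogen, was also lower in the Detroit parent, at 4.80 and 4.26 against 7.70 and 7.24 in the Fadu parent (difference -2.94, adjusted p = 0.00163). The PLAT and PLGRKT calls held whichever array was left out, and the SERPINA1 call ended without Detroit parent replicate 1 or 2 or Fadu parent replicate 1 (limma adjusted p = 0.0890 to 0.201).

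Among serine proteases of epithelial surfaces, 3 were lower in the Detroit parent and 1 was higher. PRSS21, testisin, a membrane-anchored serine protease, was at 3.99 and 4.36 in the Detroit parent arrays, both dim, and at 8.54 and 7.75 in the Fadu parent arrays (difference -3.97, SE 0.37, adjusted p = 0.000265). TMPRSS4, another membrane serine protease, went the other way, at 8.67 and 7.39 in the Detroit parent and 5.75 and 5.71 in the Fadu parent (difference 2.30, adjusted p = 0.0081). These were the 2 calls among 14 membrane serine proteases and sodium channel subunits. The kallikrein KLK5, which activates other kallikreins in the shedding of epidermis, was at 4.23 and 4.51 in the Detroit parent and at 6.23 and 7.71 in the Fadu parent (difference -2.60, adjusted p = 0.00728). KLK10 was at 7.26 and 5.97 in the Detroit parent and at 8.90 and 9.12 in the Fadu parent (difference -2.40, adjusted p = 0.0247), though its second probe set gave -0.45. The other 11 of 13 kallikreins did not pass, so 15.4% were called, and the list median was 0.18. Leaving out Fadu parent replicate 1 or 2 ended the TMPRSS4 call (adjusted p = 0.0753 and 0.0618), leaving out Detroit parent replicate 1 ended the KLK5 call (adjusted p = 0.0657), and leaving out Detroit parent replicate 2 or either Fadu parent array ended the KLK10 call (adjusted p = 0.137 to 0.159). The PRSS21 call held whichever array was left out.

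Among interstitial matrix genes, 4 were higher in the Detroit parent. COL5A2, a chain of the collagen that starts collagen I fibrils, was at 8.30 and 6.83 in the Detroit parent and at 3.14 and 3.36 in the Fadu parent, which was dim (difference 4.31, SE 0.39, adjusted p = 0.000199). TGFBI, a secreted adhesion protein induced by TGF-beta, was at 11.14 and 9.42 in the Detroit parent and at 5.09 and 6.86 in the Fadu parent (difference 4.31, SE 0.67, adjusted p = 0.00787). FN1, fibronectin, was at 9.09 and 7.22 in the Detroit parent and at 4.79 and 5.61 in the Fadu parent (difference 2.95, adjusted p = 0.0372). Its other probe sets gave 0.01 to 3.61. Detroit parent replicate 1 was the highest array of the 4 for all 3 genes. With the matrilin MATN2 (difference 2.10), 4 of 28 interstitial matrix genes rose (14.3%). In this list 0 fell and 24 did not pass, at a list median of 0.47. Of 16 basement membrane genes, 0 were called at a list median of 0.59, and HSPG2, perlecan, had a difference of 1.55 (adjusted p = 0.092). The integrin genes gave 0 calls of 14, with ITGA6 at 2.04 (adjusted p = 0.0604) and ITGA2 at 1.69 (adjusted p = 0.0747). The TGFBI call ended without Detroit parent replicate 1 or Fadu parent replicate 1 (limma adjusted p = 0.0657 and 0.0836), the MATN2 call without these or Detroit parent replicate 2 (adjusted p = 0.0545 to 0.068), and the FN1 call in 7 of 12 such fits, which left out Detroit parent replicate 1 or any Fadu array or OECM1 parent array (adjusted p = 0.0534 to 0.284). The COL5A2 call held in all of them, and the list count was 1 without Detroit parent replicate 1 or Fadu parent replicate 1.

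Markers of fibroblasts, which make the same matrix, were read beside these genes. Of 14 fibroblast markers on the array, 8 and 8 were above the dim limit in the Detroit parent arrays and 7 and 8 in the Fadu parent arrays, and their summed log2 levels were 67.8 and 64.6 in the Detroit parent against 61.9 and 63.7 in the Fadu parent. None of the 9 tested was called. COL1A2, which is also in the interstitial matrix list, was at 8.5 and 5.35 in the Detroit parent and at 4.55 and 4.91 in the Fadu parent (difference 2.19, adjusted p = 0.172). All arrays were labelled as cell lines, and the part of other cell types in the matrix result was not tested. In bulk RNA fewer cells of a type and less RNA per cell cannot be told apart. Of 11 endothelial markers, 4 were above the dim limit in each of the 4 arrays. Of 14 leukocyte markers, 7 and 9 were above it in the Detroit parent and 7 and 8 in the Fadu parent, with 0 called, and S100A8 and S100A9 are also genes of myeloid leukocytes. The leukocyte list summed to 65.9 and 65.9 in the Detroit parent and to 64.0 and 65.5 in the Fadu parent.

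Among genes of glandular and secretory epithelium, 4 were higher in the Detroit parent. CEACAM6, a membrane-anchored adhesion protein, was at 8.52 and 7.08 in the Detroit parent and at 4.46 and 4.45 in the Fadu parent (difference 3.35, adjusted p = 0.000979). PSCA, a small surface antigen, was at 8.05 and 6.0 in the Detroit parent and at 3.62 and 3.77 in the Fadu parent (difference 3.33, adjusted p = 0.00787). AGR2, a disulfide isomerase needed for mucin production, was at 8.10 and 7.97 in the Detroit parent and at 5.69 and 4.27 in the Fadu parent (difference 3.05, adjusted p = 0.00319). The lines lay apart in all of these, as they did in every called gene. CD24, a mucin-like surface protein, had a difference of 3.29 (adjusted p = 0.00118), and its other 5 probe sets gave 3.89 to 6.0. These were the 4 calls of 22 genes (18.2%), with 0 lower and a list median of 0.39. The PSCA call ended without Fadu parent replicate 1 (adjusted p = 0.0753), and the calls of CEACAM6, AGR2 and CD24 held whichever array was left out. EHF, an ETS factor of differentiated epithelium, was at 8.08 and 7.70 in the Detroit parent and at 3.84 and 4.93 in the Fadu parent (difference 3.50, adjusted p = 0.00477). It was the call among 22 genes of epithelial adhesion and identity (4.5%, against 2.58% of all tested genes). Without Fadu parent replicate 1 the EHF call ended (adjusted p = 0.0564). MALL, a membrane raft protein related to MAL, was at 9.95 and 10.26 in the Detroit parent and at 5.82 and 5.83 in the Fadu parent (difference 4.29, adjusted p = 0.000329).

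The basal keratin KRT14 was lower in the Detroit parent. It was at 4.11 and 4.0 in the Detroit parent arrays, both dim, and at 9.08 and 8.66 in the Fadu parent arrays, a difference of -4.81 (SE 0.62, adjusted p = 0.00281), or 28.1-fold lower in the Detroit parent. The call held whichever array was left out. Its partner KRT5 was bright in both lines, at 8.72 and 9.44 in the Detroit parent and at 10.08 and 10.41 in the Fadu parent (difference -1.16, adjusted p = 0.476). KRT14 was the call among 4 basal and stress keratins tested, all 4 of which had a difference below 0. The OECM1 parent averaged 4.42 ± 0.737 (SD, n = 2) for KRT14, so the Fadu parent alone of the 3 parents had a high level. Of 5 simple epithelial keratins and 22 genes of the cornified envelope, 0 were called, with list medians of 0.61 and 0.19. In the cornified envelope list LY6D was at 6.33 and 10.25 in the Detroit parent and at 5.56 and 5.48 in the Fadu parent (difference 2.78, adjusted p = 0.162), and KRT4 was at 6.05 and 9.12 in the Detroit parent and at 6.65 and 5.06 in the Fadu parent (difference 1.73, adjusted p = 0.51). In both genes it was Detroit parent replicate 2 that was high.

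Among desmosome genes, 2 were also lower in the Detroit parent. DSC3, a cadherin of basal desmosomes, was at 5.94 and 4.88 in the Detroit parent and at 7.0 and 6.97 in the Fadu parent (difference -1.57, adjusted p = 0.0464). DSP, desmoplakin, which ties keratin filaments to the desmosome, was at 7.73 and 8.21 in the Detroit parent and at 9.49 and 9.41 in the Fadu parent (difference -1.49, adjusted p = 0.0479). These 2 of 9 desmosome genes fell, 0 rose and 7 did not pass, with a list median of -0.55. Both calls lay near the threshold, and each ended in 8 of 12 fits that left out 1 array, Fadu parent replicates 1 and 2 and Detroit parent replicate 2 among them (adjusted p = 0.0507 to 0.29). The classical cadherin CDH1 differed by -0.19 (adjusted p = 0.927).

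MSN, moesin, is a linker of the cell membrane to actin filaments. It was the call among 24 mesenchymal and partial EMT genes (4.17%, against 2.58% of all tested genes). It was at 3.55 and 3.53 in the Detroit parent arrays, both dim, at 7.32 and 7.75 in the Fadu parent arrays (difference -4.0, SE 0.48, adjusted p = 0.00163) and averaged 8.14 ± 0.063 in the OECM1 parent (SD, n = 2). The Detroit parent was thus the low line of the 3. ARHGAP29 was at 5.65 and 4.70 in the Detroit parent and at 8.35 and 8.53 in the Fadu parent (difference -3.26, adjusted p = 0.00563). RHOBTB3 went the other way, at 8.75 and 7.83 in the Detroit parent and at 3.74 and 4.09 in the Fadu parent (difference 4.38, adjusted p = 0.000265). The 3 calls held whichever array was left out. The hyaluronan receptor CD44 was at 12.73 and 10.18 in the Detroit parent and at 8.47 and 8.85 in the Fadu parent and did not pass (difference 2.79, adjusted p = 0.206), and its probe sets gave 0.29 to 2.79.

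Among interferon stimulated genes, 8 were lower in the Detroit parent. IFI27, an interferon alpha inducible protein of mitochondria, was at 5.98 and 5.53 in the Detroit parent arrays and at 12.08 and 9.20 in the Fadu parent arrays, a difference of -4.88 (SE 0.73, adjusted p = 0.00615), or 29.5-fold lower. ISG15, a ubiquitin-like modifier, was at 7.26 and 7.83 in the Detroit parent and at 11.39 and 9.91 in the Fadu parent (difference -3.11, SE 0.58, adjusted p = 0.0185). Every Detroit parent array lay below both Fadu parent arrays for these genes, as for every gene called lower. Fadu parent replicate 1 lay above replicate 2. IFI44 had a difference of -2.90 (adjusted p = 0.0485), IFIT1, which binds viral RNA, -2.48 (adjusted p = 0.0462) and GBP1, a guanylate-binding GTPase, -2.13 (adjusted p = 0.028). Of 36 interferon stimulated genes tested, 8 fell (22.2%), 0 rose and 28 did not pass. A difference below 0 was seen in 33, and the list median was -0.96 against 0.02 over all tested genes. The OECM1 parent averaged 4.16 ± 0.540 for IFI27 and 8.03 ± 0.307 for ISG15 (SD, n = 2), nearer to the Detroit parent. Antigen presentation genes, many of them also interferon responsive, gave 0 calls of 19 and a median of -0.03.

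The interferon count fell from 8 in fits without Fadu parent replicate 1 or either Detroit parent array. Such a fit leaves 1 array in that group and so a larger SE. A call lost there does not by itself show that it rested on that array. The count was 10 without the arrays labelled Detroit invasion subline. IFI27 passed in every one of the 12 fits that left out an array, with differences between -6.33 and -3.44. Without Fadu parent replicate 1 the difference was -2.37 for ISG15 (adjusted p = 0.191), -2.52 for IFI44 (adjusted p = 0.324), -1.62 for IFIT1 (adjusted p = 0.342) and -1.46 for GBP1 (adjusted p = 0.235). Without Detroit parent replicate 1 or 2, adjusted p was 0.134 and 0.0525 for ISG15, 0.231 and 0.152 for IFI44, 0.211 and 0.152 for IFIT1 and 0.13 and 0.131 for GBP1. The ISG15, IFIT1 and GBP1 calls held without Fadu parent replicate 2, and the IFI44 call did not (adjusted p = 0.129). Among the 12 fits IFI44 passed only in the 2 that left out an array labelled Detroit invasion subline, and the IFIT1 call also ended without either Fadu invasion subline array or either OECM1 parent array (adjusted p = 0.0688 to 0.0789). Fadu parent replicate 1 also had the highest ACTB ratio of the 4 parent arrays, 0.55. With that ratio as a covariate the interferon count was again 8, while the calls over all genes went from 232 to 343. IFI27 was then at -4.75 and ISG15 at -3.14. The part of RNA quality in these differences was not tested.

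Promoters of 3 of these genes are shown because they hold the interferon response element. The RefSeq promoters (GRCh38.p14, 300 bases around the start, plus strand) are IFI27 at chr14:94110486-94110785, ISG15 at chr1:1013247-1013546 and IFIT1 at chr10:89392373-89392672. Capitals mark 2 copies of GAAA with NN between them, on either strand, and overlapping matches run together.
IFI27: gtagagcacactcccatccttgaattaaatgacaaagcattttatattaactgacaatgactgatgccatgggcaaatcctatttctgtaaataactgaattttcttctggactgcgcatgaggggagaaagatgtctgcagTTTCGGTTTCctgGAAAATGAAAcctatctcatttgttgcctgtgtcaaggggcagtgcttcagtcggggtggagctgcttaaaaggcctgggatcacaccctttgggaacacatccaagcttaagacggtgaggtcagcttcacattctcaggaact
ISG15: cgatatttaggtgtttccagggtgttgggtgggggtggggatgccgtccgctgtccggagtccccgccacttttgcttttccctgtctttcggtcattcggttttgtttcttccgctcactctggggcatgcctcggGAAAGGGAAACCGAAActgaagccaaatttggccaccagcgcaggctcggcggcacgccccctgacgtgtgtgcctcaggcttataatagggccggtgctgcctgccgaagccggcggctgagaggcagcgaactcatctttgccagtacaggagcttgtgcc
IFIT1: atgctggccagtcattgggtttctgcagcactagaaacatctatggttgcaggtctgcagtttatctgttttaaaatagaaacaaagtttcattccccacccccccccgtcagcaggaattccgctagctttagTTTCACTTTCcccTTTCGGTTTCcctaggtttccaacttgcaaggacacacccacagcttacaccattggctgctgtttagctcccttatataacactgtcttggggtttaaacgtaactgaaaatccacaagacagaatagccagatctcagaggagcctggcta
Each of the 3 holds 2 matches, side by side in IFI27 and IFIT1 and overlapping in ISG15. The letters were found in 7 of 8 promoters of the called interferon genes (87.5%), in 12 of 18 of the interferon genes not called (66.7%), in 206 of 7308 promoters of tested genes (2.82%) and in 996 of all 27305 promoters (3.65%). Of the genes called lower 8 of 98 held them (8.16%), and of those called higher 1 of 91 (1.1%). The 7 called interferon genes with the letters are among these 8, so the share for lower genes mostly repeats the interferon list. A match is a description of the sequence and not a binding site.

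**Figure D3:**
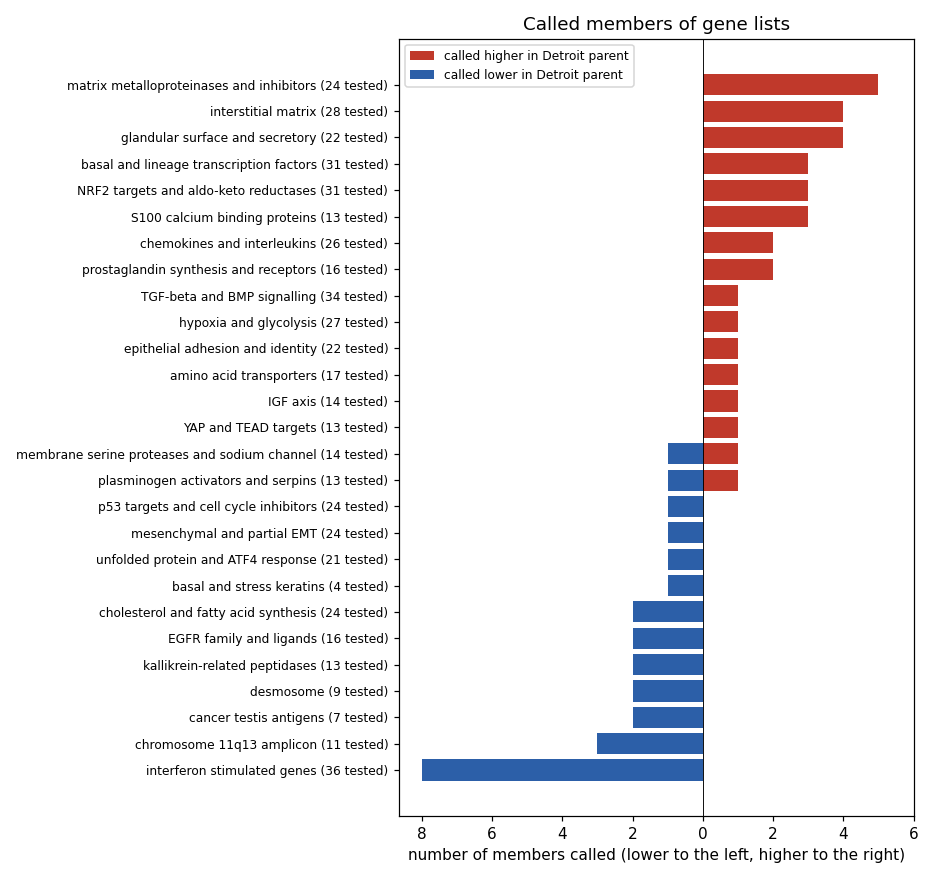
Number of members of each gene list called higher (right) or lower (left) in the Detroit parent, for lists with at least 1 call, with the number of tested members in brackets. Metalloproteinases and their inhibitors lead on the right with 5 of 24, and interferon stimulated genes on the left with 8 of 36. The lists were chosen with earlier results of these data known, so their order is a description.

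Growth factor genes differed in a few members. EREG, epiregulin, a ligand of EGFR, was at 3.89 and 3.22 in the Detroit parent, both dim, and at 7.63 and 6.37 in the Fadu parent (difference -3.44, SE 0.72, adjusted p = 0.0305). DUSP6, a phosphatase that ERK signalling induces and that acts back on ERK, had a difference of -2.01 (adjusted p = 0.0396), and its call ended with the mean of its probe sets (adjusted p = 0.109). These 2 of 16 genes of the EGFR family, ligands and feedback fell, 0 rose, and the list median was -0.47. Their calls ended in 10 and 6 of 12 fits that left out 1 array, each of the 4 parent arrays among them (adjusted p = 0.051 to 0.259). In the IGF axis IGFBP7 rose (difference 2.27, adjusted p = 0.0422) and 13 of 14 did not pass, so 7.14% were called. IGFBP3 was among those that did not pass, at 11.93 and 11.70 in the Detroit parent and 9.15 and 7.37 in the Fadu parent (difference 3.56, adjusted p = 0.0624). The IGFBP7 call ended in 7 of 12 such fits, Detroit parent replicate 1 and both Fadu parent arrays among them (adjusted p = 0.0684 to 0.285). YAP1, the coactivator of TEAD factors, was at 9.06 and 8.40 in the Detroit parent and at 6.24 and 7.09 in the Fadu parent (difference 2.07, adjusted p = 0.0247). It was the call among 13 YAP and TEAD genes (7.69%, against 2.58% of all tested genes). Its call ended without Detroit parent replicate 1, Fadu parent replicate 1 or either Fadu invasion subline array (adjusted p = 0.0509 to 0.259).

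Transcription factors of lineage gave 3 higher genes of 31 (9.68%) and 0 lower. ID3, an inhibitor of basic helix-loop-helix factors, was at 7.58 and 9.53 in the Detroit parent and at 5.04 and 4.89 in the Fadu parent (difference 3.59, adjusted p = 0.00615). There was 1 call among 34 TGF-beta and BMP genes (2.94%), near the 2.58% over all tested genes. It was BAMBI, a pseudoreceptor of the family named after its values were seen. BAMBI was at 6.88 and 6.15 in the Detroit parent and at 4.87 and 4.94 in the Fadu parent (difference 1.60, adjusted p = 0.018). The list count was 0 without Detroit parent replicate 1 or either Fadu parent array and 3 without Detroit parent replicate 2 or either array labelled Detroit invasion subline. BMP4, a ligand that induces ID genes, was at 8.22 and 5.72 in the Detroit parent and at 4.62 and 4.42 in the Fadu parent and did not pass (difference 2.45, adjusted p = 0.0537). EYA2 and SOX2 had smaller differences of 1.19 (adjusted p = 0.0214) and 1.15 (adjusted p = 0.0438), and other SOX2 probe sets gave 0.58 and 0.02. With the mean of its probe sets the SOX2 call ended (adjusted p = 0.207). Leaving out Fadu parent replicate 1 ended the ID3 call (adjusted p = 0.0547), and leaving out any of the 4 parent arrays ended the EYA2 and SOX2 calls (adjusted p = 0.103 to 0.29). The SOX2 call ended in 8 of 12 fits in all. The 20 HOX genes and the 24 WNT and NOTCH genes gave 0 calls, with NOTCH2 at -1.62 (adjusted p = 0.0683).

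Among genes of carbonyl, lipid mediator and amino acid handling, 6 were higher in the Detroit parent. AKR1C3, a reductase of steroids and prostaglandins, was at 7.87 and 7.29 in the Detroit parent and at 3.33 and 3.79 in the Fadu parent (difference 4.03, SE 0.32, adjusted p = 9.83e-05). AKR1B10, a reductase of retinal and aldehydes, had a difference of 1.89 (adjusted p = 0.00948) and GSR, glutathione reductase, 1.65 (adjusted p = 0.0148). These 3 of 31 NRF2 targets and aldo-keto reductases rose (9.68%), 0 fell, and the list median was 0.32. Probe sets of the AKR1C genes, which are near-identical, can share signal. PLAAT3, a phospholipase and acyltransferase, was at 9.98 and 10.26 in the Detroit parent and at 5.57 and 5.95 in the Fadu parent (difference 4.36, adjusted p = 0.00019), and PLA2G4A, which frees arachidonic acid from membranes, had a difference of 2.97 (adjusted p = 0.00317). They were the 2 calls among 16 genes of prostaglandin synthesis and response. SLC1A3, a glutamate and aspartate transporter, was at 10.86 and 10.52 in the Detroit parent and at 5.87 and 6.72 in the Fadu parent (difference 4.39, SE 0.45, adjusted p = 0.000483). The other 16 of 17 amino acid transporters did not pass, so 5.88% were called, against 2.58% of all tested genes. The AKR1B10 call ended without Detroit parent replicate 1 or either Fadu parent array (adjusted p = 0.0618 to 0.095) and the GSR call without Detroit parent replicate 1 or Fadu parent replicate 1 (limma adjusted p = 0.113 and 0.171). The other calls of this paragraph held whichever array was left out.

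Among lipid synthesis genes, 2 of fatty acid synthesis were lower in the Detroit parent. ACLY, which makes cytosolic acetyl-CoA, was at 6.47 and 7.17 in the Detroit parent and at 9.04 and 8.92 in the Fadu parent (difference -2.16, adjusted p = 0.00821). ACACA, which makes malonyl-CoA in the next step, was at 7.15 and 7.07 in the Detroit parent and at 8.87 and 8.60 in the Fadu parent (difference -1.62, adjusted p = 0.0312). Of 24 cholesterol and fatty acid synthesis genes these 2 fell (8.33%) and 0 rose, 19 had a difference below 0, and the list median was -0.52. Other probe sets of both genes gave smaller differences, -0.66 and -0.82 for ACLY and -0.45 for ACACA, and with the mean of a gene's probe sets both calls ended (adjusted p = 0.187 for ACLY and 0.11 for ACACA). Both calls ended without Detroit parent replicate 1 or either Fadu parent array (adjusted p = 0.0615 to 0.259), and the ACACA call ended in 8 of 12 such fits in all. The 7 metallothioneins, which bind zinc and copper, all had a difference below 0 at a list median of -0.84, but 0 passed, with MT1F at -1.33 (adjusted p = 0.0577) and MT1E at -1.26 (adjusted p = 0.0537). Of 27 hypoxia and glycolysis genes 1 rose (3.70%), PFKFB3, which makes the activator of phosphofructokinase (difference 1.93, adjusted p = 0.00919). Of 21 unfolded protein and ATF4 response genes 1 fell (4.76%), CRELD2, a secretory pathway protein (difference -2.04, adjusted p = 0.0312). The share called over all tested genes was 2.58%. The CRELD2 call ended without any of the 4 parent arrays or either Fadu invasion subline array (adjusted p = 0.0546 to 0.201) and the PFKFB3 call without Detroit parent replicate 2 or Fadu parent replicate 1 (limma adjusted p = 0.0631 and 0.125).

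Among cancer testis antigens, genes normally restricted to germ cells, 2 were lower in the Detroit parent. MAGEA4 was at 4.03 and 4.02 in the Detroit parent, both dim, and at 8.18 and 7.55 in the Fadu parent (difference -3.84, SE 0.35, adjusted p = 0.000199), while the OECM1 parent averaged 7.53 ± 0.403 (SD, n = 2). PRAME was at 4.69 and 4.83 in the Detroit parent and at 7.06 and 5.93 in the Fadu parent (difference -1.74, adjusted p = 0.0372). These 2 of 7 tested fell and 0 rose. The PRAME call ended in 7 of 12 fits that left out 1 array, both Detroit parent arrays and Fadu parent replicate 1 among them (adjusted p = 0.0525 to 0.299). CCNA1, the cyclin A of germ cells, was the call among 24 p53 targets and cell cycle inhibitors (4.17%, against 2.58% of all tested genes). CCNA1 was at 3.47 and 3.30 in the Detroit parent and 4.78 and 4.66 in the Fadu parent (difference -1.34, adjusted p = 0.00818). It is dim in the Detroit parent and barely above the limit in the Fadu parent, and its call ended without Detroit parent replicate 2 or either Fadu parent array (adjusted p = 0.0509 to 0.097).

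The lists of proliferation genes gave no call. The replication kinase CDC7, which is in neither list, was called lower and is described below. Of 31 G2 and mitosis genes and 30 S phase genes, 0 were called, at list medians of -0.05 and 0.01, with 0 and 1 members at an unadjusted p under 0.05. Among the largest differences of these lists, the mitotic kinesin KIF11 had -1.39 (adjusted p = 0.456) and the replication gene CDC45 had 1.69 (adjusted p = 0.389). The 4 APOBEC3 genes and the 3 tested genes of chromosome 9p21 gave 0 calls. CDKN2A, which encodes p16, was at 7.04 and 7.01 in the Detroit parent and at 7.04 and 7.15 in the Fadu parent. The 12 housekeeping genes gave 0 calls and a median of 0.03, with differences from -1.66 for GUSB to 0.85 for SDHA. Of these genes 2 had an unadjusted limma p under 0.05, and 1 was called with only the 4 parent arrays.

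Other genes among the 12 largest differences on each side belonged to none of these groups. TMT1A, a thiol methyltransferase, was higher in the Detroit parent, at 9.29 and 8.26 against 5.67 and 4.13 in the Fadu parent (difference 3.88, adjusted p = 0.0071), but its other probe sets gave -0.02 and 0.04. DRC9, a part of the dynein regulatory complex of cilia, was lower, at 4.06 and 3.80 against 7.43 and 7.37 in the Fadu parent (difference -3.46, adjusted p = 8.29e-05). CHSY1, a chondroitin sulfate synthase, and EEF1A2, an elongation factor of muscle and neurons, were lower by smaller amounts (differences -3.08 and -3.04, adjusted p = 0.0112 and 0.00803). The DRC9 call held whichever array was left out, the TMT1A and EEF1A2 calls ended without Detroit parent replicate 1 or Fadu parent replicate 2 (limma adjusted p = 0.0547 to 0.0773), and the CHSY1 call without Detroit parent replicate 2 or Fadu parent replicate 1 (limma adjusted p = 0.0774 and 0.125).

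Called genes often lay among neighbours that differed the same way. Tested genes were placed in chromosome order and cut into 440 windows of 20 genes, and 102 windows had a median difference beyond 0.3 in size, 39 above 0 and 63 below. Window medians ran between -1.25 and 1.09. Between an invasion subline and its own parent the same count was 11 in Fadu and 18 in OECM1, and between single parent arrays of the same number it was 137 for replicate 1 and 92 for replicate 2. The Fadu count shares the Fadu parent arrays. Of 225 called genes in such windows, 86 (38.2%) had 19 window neighbours with a median beyond 0.3 in the gene's own direction, against 1543 of 8800 tested genes (17.5%). The share was 48.6% for genes called lower and 28.4% for genes called higher. Expression alone does not give copy number, which was not measured here.

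Chromosome 1 held the longest run, 12 windows in a row between PPIE and BCL9. Of its 240 genes 200 had a difference below 0 and 40 above, with a median of -0.77, and 17 were called lower and 1 higher. In the same genes the median difference was -0.42 for the Detroit parent minus the OECM1 parent and 0.21 for the Fadu parent minus the OECM1 parent. The called genes ARHGAP29, GBP1, IFI44, SLC25A24, PRPF38B and CDC7, a kinase that fires replication origins, lie in this run. CDC7 was at 3.78 and 4.15 in the Detroit parent and at 7.03 and 6.58 in the Fadu parent (difference -2.83, adjusted p = 0.00787). GBP1 had neighbours with a median of -1.03, IFI44 of -0.83 and ARHGAP29 of -1.24. The CDC7 call ended without Detroit parent replicate 1 or Fadu parent replicate 1 (limma adjusted p = 0.072 and 0.0925).

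Chromosome 11 held 7 windows with a median above 0.3 and 0 with one below -0.3. In the window between TCP11L1 and TRAF6 all 20 genes had a difference above 0, with a median of 1.09. The Detroit parent arrays lay above both Fadu parent arrays in 14 of them and overlapped in 6. Over all tested genes, the arrays lay apart in 51.3%, counting both directions. The 2 Detroit parent arrays differed in the size of this window. Set against the Fadu parent mean, its median was 1.62 in Detroit parent replicate 1 and 0.53 in replicate 2. In this window EHF, CAT, the catalase gene, and COMMD9 were called (differences 3.50, 1.93 and 1.22). CD44 and CD59, a complement inhibitor, lie in it too. From ROM1 to ZNRD2, 58 of 60 genes had a difference above 0 at a median of 0.60 and 6 were called, among them PLAAT3, the calpain CAPN1, the GTPase ARL2, VPS51 and MRPL49. From PLEKHB1 to TMEM123, 54 of 60 had a difference above 0 at a median of 0.73 and YAP1 was called. MMP7 and MMP10 lie just beyond that block, among neighbours whose median was -0.40. In all, 20 genes of chromosome 11 were called higher and 4 lower of 578 tested (4.15%, against 2.58% of all tested genes). Larger shares were called on chromosomes 4 (5.71%), 14 (5.05%) and X (4.3%), so chromosome 11 was not alone in this. The calls of CAT, COMMD9, CAPN1, ARL2, VPS51 and MRPL49 each ended both without Detroit parent replicate 1 and without Fadu parent replicate 1, and other arrays also ended all but that of CAPN1 (adjusted p = 0.0518 to 0.263).

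Among genes of the 11q13 amplicon, a segment often gained in head and neck cancer, 3 were lower in the Detroit parent. SHANK2, a scaffold protein, was at 3.70 and 3.49 in the Detroit parent, both dim, and at 5.98 and 6.72 in the Fadu parent (difference -2.75, adjusted p = 0.00594). PPFIA1, a liprin of focal adhesions, was at 7.63 and 7.10 in the Detroit parent and at 9.56 and 9.65 in the Fadu parent (difference -2.24, adjusted p = 0.0131). Other probe sets of SHANK2 gave -1.29, -0.02 and 0.42 and those of PPFIA1 gave -1.0, -1.53 and -1.08. With the mean of a gene's probe sets both calls ended (adjusted p = 0.0672 for SHANK2 and 0.0648 for PPFIA1). FGF4 had a difference of -1.59 (adjusted p = 0.0443). The other 8 of 11 tested did not pass, and the list median was -0.43. Among them were CTTN, cortactin, at -0.73 (other probe sets -1.25 to -2.15) and FADD at -0.43. CCND1, cyclin D1, was at -0.57, and its other probe set gave 0.01. The window between TBX10 and NADSYN1, which holds SHANK2, PPFIA1 and FGF4, had a median of -0.20. In the OECM1 parent PPFIA1 averaged 9.26 ± 0.0974 and SHANK2 3.35 ± 0.0431 (SD, n = 2), so the OECM1 parent lay with the Fadu parent for the first and with the Detroit parent for the second. The SHANK2 call ended without Fadu parent replicate 2 (adjusted p = 0.0512), the PPFIA1 call without Detroit parent replicate 2 or either Fadu parent array (adjusted p = 0.0753 to 0.105) and the FGF4 call in 9 of 12 such fits (adjusted p = 0.0574 to 0.248). The list count was 0 without Fadu parent replicate 2 and 1 without Detroit parent replicate 2.

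**Figure D4:**
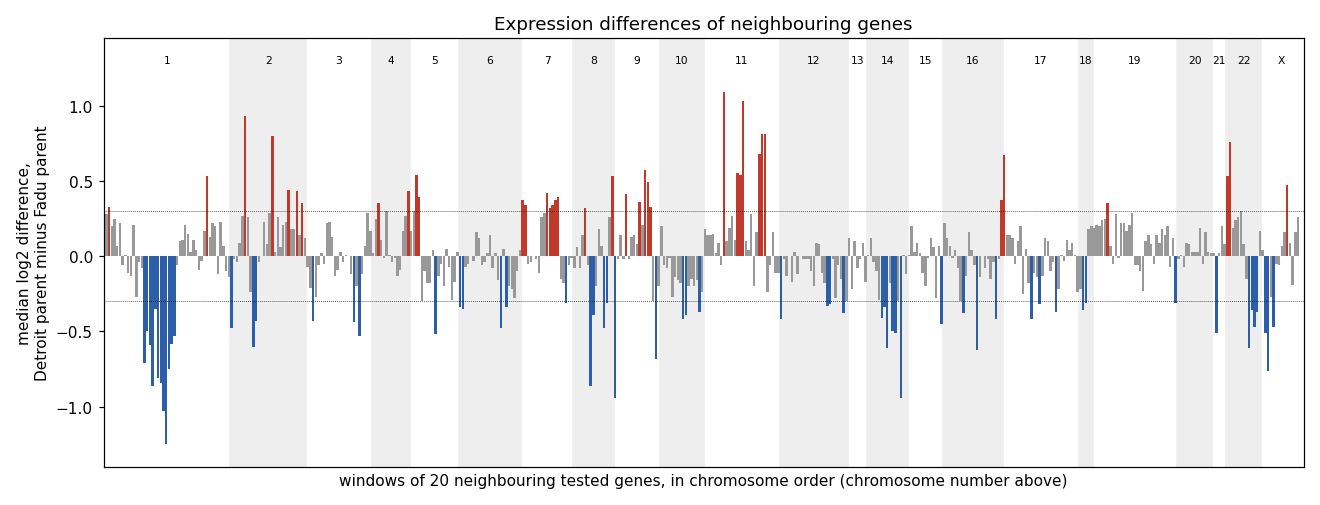
Median log2 difference, Detroit parent minus Fadu parent, of each of 440 windows of 20 neighbouring tested genes in chromosome order, with the chromosome above and dotted lines at 0.3 on either side of 0. The 39 red windows lie above and the 63 blue windows below these lines, and the longest blue run is on chromosome 1.

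Chromosome 14 had 16 genes called lower and 0 higher of 317 tested (5.05%, against 2.58% of all tested genes). In the window between GOLGA5 and TCL6 the median was -0.94 and 6 genes were called lower, among them IFI27, SERPINA1, GOLGA5, a Golgi tether, MOAP1, a modulator of apoptosis, and DICER1, which cuts precursors of small RNAs. MOAP1 was at 5.40 and 4.68 in the Detroit parent and at 8.02 and 7.56 in the Fadu parent (difference -2.75, adjusted p = 0.00803). DICER1 had a difference of -2.58 (adjusted p = 0.0249), with -2.08 to 0.19 in other probe sets. IFI27 thus had 19 neighbours with a median of -0.63, whereas those of ISG15 had 0.28. On chromosome 9 the window between KANK1 and DENND4C had a median of -0.94 with 6 genes called lower, PLGRKT among them. On chromosome 22, 37 of 40 genes between GSTT1 and HIC2 had a difference above 0 at a median of 0.74, and BID, MRPL40, TXNRD2, MED15 and SNAP29, named after their values were seen, were called higher. The GOLGA5 call ended without Fadu parent replicate 1 or 2 (adjusted p = 0.0591 and 0.0514), the MOAP1 call without Detroit parent replicate 2 or Fadu parent replicate 1 (limma adjusted p = 0.0631 and 0.095) and the DICER1 call without any of the 4 parent arrays (adjusted p = 0.0963 to 0.219).

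The OECM1 parent served as the third level for the 232 called genes. Its mean lay nearer to the Detroit parent in 112 and nearer to the Fadu parent in 120. In 78 genes the Detroit parent was called against the OECM1 parent and the Fadu parent was not, in 73 the reverse held, in 3 both were called and in 78 neither was. These contrasts share arrays with the comparison of the parents and are given only side by side. S100A8, S100A7, MMP7, CXCL6, COL5A2 and AKR1C3 were near or below the dim limit in both the Fadu and OECM1 parents, and KRT14, PRSS21 and DRC9 in both the Detroit and OECM1 parents. TGFBI, RHOBTB3 and FN1, at 10.46 ± 0.693, 8.37 ± 0.155 and 8.70 ± 0.434 in the OECM1 parent (SD, n = 2), were low in the Fadu parent alone.

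The same line contrast was also measured in the invasion sublines, whose arrays entered the pooled spread, the choice of probe set and the filter of the parent comparison but not its means. With the arrays labelled Detroit invasion subline set over the Fadu invasion subline, 1 gene was called (0.0111%), with 630 at an unadjusted p under 0.05. The call was KLK5, which was higher there (difference 4.06) and lower in the Detroit parent (-2.60). None of the 232 genes called between the parents was called the same way between the sublines, and 140 of them had the same sign. The median size of the difference in these 232 genes was 2.08 between the parents, while the median between the sublines, taken in the direction of the parents, was 0.10. S100A8 had a difference of -0.24 between the sublines, S100A9 of -0.03, MMP7 of 0.14 and CXCL6 of 0.01. KRT14 had 1.68 and IFI27 -1.20. A test of the difference between the contrasts called 54 genes (0.601%), 51 of them among the 232. The other 3 were CALB2, COL4A1 and IRS1, named after their values were seen. That test contains the parent difference by which the 232 genes were chosen, so the overlap of 51 is no separate evidence. Without replicate 1 of the arrays labelled Detroit invasion subline, 376 genes were called between the sublines and 335 for the difference between contrasts. As given before the results, the 2 arrays labelled Detroit invasion subline were closer on average to the Fadu parent than to the Detroit parent, so these values compare the groups as labelled.

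**Figure D5:**
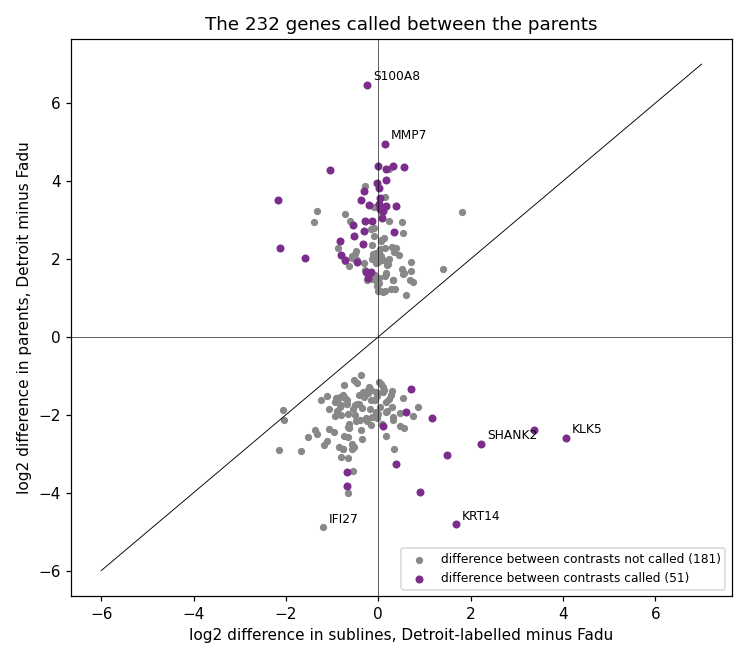
Log2 difference of each of the 232 genes called between the parents, in sublines (x axis, arrays labelled Detroit invasion subline minus Fadu invasion subline) and in parents (y axis, Detroit minus Fadu), with the line of equal values. Purple points are the 51 genes whose difference between the contrasts was called, and S100A8 and MMP7 lie near 0 on the x axis.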

How the data were processed

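Total RNA of 12 samples was hybridised to Affymetrix arrays, and the deposited values were log2 expression values of 22283 probe sets, made by the authors with RMA, with Partek version 7 also named, per the submitters' processing notes. The genome build and annotation used are not given in the sources used here. Arrays have no read depth, so their number limits the precision. There were 0 unused columns.

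Gene symbols came from the platform annotation. Besides 68 controls, 19065 had 1 symbol, 1043 had several and 2107 none, and 19053 of the first were found in the RefSeq gene table. A gene was its single-symbol probe set of highest mean over the 12 arrays, kept with 2 or more arrays above the 40th percentile (4.52). The 6 group means were fitted with limma 3.58.1 (R 4.3.3, intensity trend), after tests on simulated data, with Benjamini-Hochberg adjustment over 8992 genes. The median SE was 0.351. Gene order came from the RefSeq table, and promoters from RefSeq, GRCh38.p14.

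The members, 44 gene lists and tests were chosen with earlier results of these data known. Named genes were S100A8, KRT14, the 12 largest called differences on each side whose arrays did not overlap, up to 5 called members of each list (with fewer than 2, the 2 largest differences), up to 4 called genes of the 5 most extreme windows, and the 9p21 and 11q13 lists. Alternatives changed the filter, arrays, probe set rule, scaling, trend, weights, replicate block, ACTB covariate and window size, and left out each array. The replicate numbers were checked for pairing and share only a number.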

Additional observations from a re-analysis of the deposited data

Results flagged for a closer look

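In 29 named genes the Detroit over Fadu contrast differed between parents and sublines by the test of that difference (limma, adjusted p under 0.05 over 8992 genes). The values below are the log2 difference in the parents minus the log2 difference in the sublines as labelled. Among genes of calprotectin, chemokines and proteases it was 6.71 for S100A8, 3.98 for S100A9, 3.28 for S100A7, 3.82 for CXCL6, 4.81 for MMP7, 3.58 for MMP10 and 4.06 for PLAT. Among glandular and surface genes it was 2.97 for CEACAM6, 2.96 for AGR2, 3.26 for CD24, 5.33 for MALL and 3.89 for EHF. Among matrix, growth factor binding and metabolic genes it was 4.14 for COL5A2, 4.41 for IGFBP7, 3.86 for AKR1C3, 3.81 for PLAAT3, 3.11 for PLA2G4A, 4.07 for SLC1A3 and 4.39 for RHOBTB3. Among genes lower in the Detroit parent it was -6.49 for KRT14, -6.66 for KLK5, -5.77 for KLK10, -4.88 for PRSS21, -4.98 for SHANK2, -4.52 for EEF1A2, -3.64 for ARHGAP29, -3.17 for MAGEA4, -2.79 for DRC9 and -2.05 for CCNA1. All 29 rest on the arrays labelled Detroit invasion subline, whose mean resembled that of the Fadu parent. They also contain the parent difference by which these genes were called, so they are no separate evidence of it.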

How the results depend on the processing

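Of 77 named called genes, 25 passed in all 12 fits that left out an array and in all 13 other settings tried, S100A8, S100A9, MMP7, KRT14 and IFI27 among them, and 52 lost the call in at least 1 fit that left out an array. The main count of 232 was 368 with only the 4 parent arrays, 366 without both arrays labelled Detroit invasion subline, 506 with array weights, and 58 to 369 when 1 array was left out, and 189 with the replicate block (the deviations of same-numbered parent arrays correlated at r = 0.0507 over genes, with only 2 pairs). The block ended 12 of the 77 named calls. With the ACTB ratio as a covariate the main count was 343. The count of calls in lists, 61, was 104 with array weights and 26 to 87 when 1 array was left out. The count between sublines, 1, was 2 with the mean of a gene's probe sets, 6 with every probe set, 4 with the ACTB covariate and 0 to 376 when 1 array was left out. The count for the difference between contrasts, 54, was 25 to 335. Windows beyond 0.3 numbered 253 of 888 with 10 genes and 41 of 213 with 40 genes, sizes chosen after seeing the data, against 102 of 440. Small differences that were not called changed sign. With the mean of probe sets CDH1 was 0.01, CPT1A -0.02 and IGHMBP2 0.20. With arrays centred CPT1A was -0.02 and KRT18 -0.01. With quantile normalization CDKN2A was 0.00, IGHMBP2 0.05 and KRT18 0.00. With the ACTB covariate CDH1 was 0.01 and KRT18 -0.01. Over fits that left out 1 array the range was -0.52 to 0.15 for CDH1, -0.48 to 0.54 for CPT1A, -0.86 to 0.00 for FADD, -0.19 to 0.13 for IGHMBP2, -0.60 to 0.04 for KLHL9, -0.27 to 0.35 for KRT18, -0.42 to 0.13 for KRT8, -0.04 to 0.40 for KRTAP5-9 and -0.08 to 0.71 for MTAP. The cause was not tested for any of these.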
